A study of Homo sapiens with 12 samples.

Results

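How far the response to the BRD9 degrader dBRD9-A depends on SMARCB1 was examined in G401, a line derived from a human malignant rhabdoid tumour. All 12 libraries of the series enter this comparison. They form 4 groups of 3 replicates, and every culture carried the genotype SMARCB1(-/-). Doxycycline induced either GFP, as a control protein, or SMARCB1, and cells of each state then received the solvent DMSO or dBRD9-A for 24 h. The 4 groups are GFP with DMSO, GFP with dBRD9-A, SMARCB1 with DMSO and SMARCB1 with dBRD9-A. The length of the induction and the dose are not given in the sources used here, and all libraries come from 1 cell line. The labels do not say whether replicates were separate cultures, so p-values measure the spread between these libraries, which may be technical. The quantity examined was the interaction, that is the log2 change with dBRD9-A in SMARCB1 cells minus the log2 change in GFP cells. A positive interaction means that the gene was relatively lower after the degrader in GFP cells, or higher in SMARCB1 cells, and a negative interaction means the reverse.

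SWI/SNF (BAF) complexes are ATP-driven remodellers that move nucleosomes at enhancers and promoters, and they occur in several assemblies. SMARCB1 is a core subunit of the canonical BAF and PBAF assemblies and its loss defines rhabdoid tumours. BRD9 is a bromodomain protein of the non-canonical assembly, which contains BICRA or BICRAL and lacks SMARCB1. Rhabdoid lines are known to depend on BRD9 for growth.

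Depth was 34.97 to 58.54 megacounts (1e6 counts) assigned to genes per library. SMARCB1 itself (ENSG00000099956.13) was at 0 to 0.0565 CPM (counts per megacount on scaled library sizes) in the 6 GFP libraries, under the floor of 3 counts in each. In SMARCB1 cells it was at 1806, 1911 and 1907 CPM with DMSO and at 1318, 1327 and 1276 CPM with dBRD9-A, a log2 change of -0.52 (SE 0.03, adjusted p 4.95e-08). The RNA of the restored subunit was therefore itself lower in the degrader group, and the part of this difference in the other results was not tested. These data do not measure the protein. The 9 other listed markers of the line, among them vimentin and the keratins KRT8 and KRT18, summed to 7054 to 7536 CPM in GFP libraries and 6907 to 7262 in SMARCB1 libraries. Of 12 blood markers 1 was tested, CD68 at 2277 to 10140 counts, and PTPRC and CD3E were at 0 counts in every library. Of 9 endothelial markers 2 were tested, none was above 52 counts (ESAM), and KDR and EMCN were at 0. Of 10 epithelial markers 3 were tested, ELF3 was at 80 to 260 counts, the others at 44 (EPCAM) or fewer, and GRHL2 at 0. Fibroblast markers summed to 2159 to 2171 CPM in GFP cells with DMSO, 1900 to 1934 with dBRD9-A, 2183 to 2247 in SMARCB1 cells with DMSO and 1862 to 1965 with dBRD9-A. In that list DCN, LUM and FAP were at 1 count at most, while the collagens COL1A2 and COL3A1 made up most of the sum.

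The degrader response depended on the SMARCB1 state in 598 of 15750 genes tested (3.80%; edgeR quasi-likelihood test, Benjamini-Hochberg adjusted p under 0.05). The interaction was positive in 338 genes (2.15%) and negative in 260 (1.65%). In most of these genes a change seen in GFP cells was small or not detected with SMARCB1. Of the 338 positive genes, 320 were lower with the degrader in GFP cells, 54 were lower in SMARCB1 cells and 10 were higher there, and the median log2 change was -0.36 in GFP cells and -0.03 in SMARCB1 cells. Of the 260 negative genes, 231 were higher in GFP cells, 8 were higher and 24 were lower in SMARCB1 cells, and the medians were 0.27 and -0.03. Over all genes tested, 2504 (15.9%) were called in GFP cells, 1170 higher (7.43%) and 1334 lower (8.47%), and 304 (1.93%) in SMARCB1 cells, 107 higher (0.679%) and 197 lower (1.25%). These state responses share libraries with the interaction, so they describe the called genes and add no support.

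**Figure D1:**
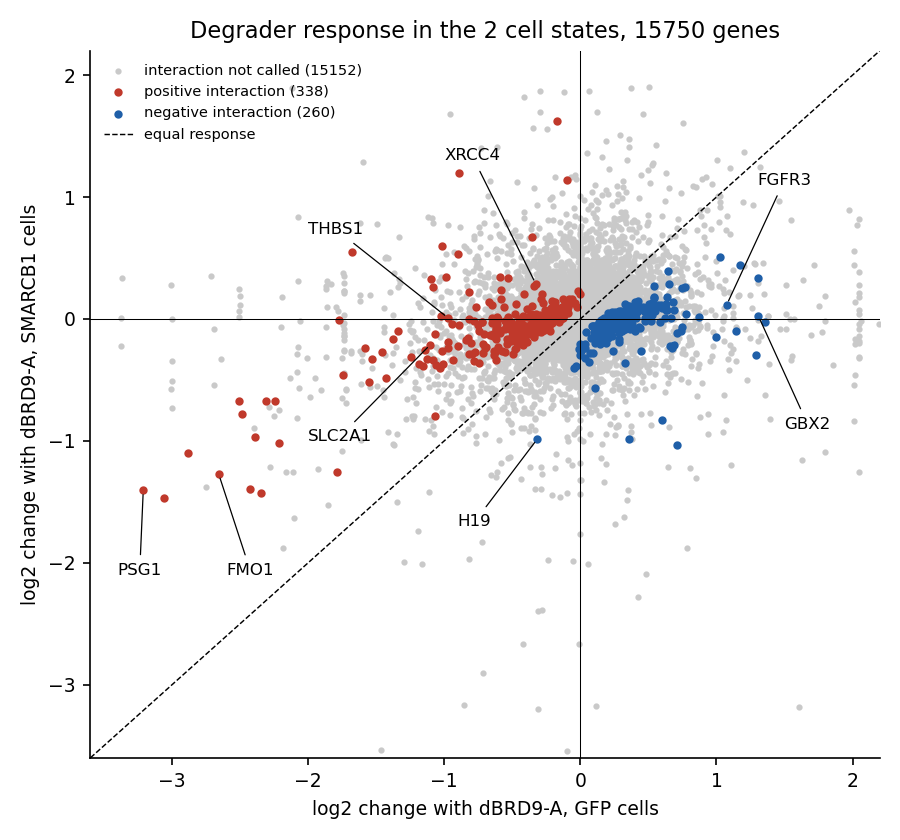
Log2 change with dBRD9-A in GFP cells (x axis) against SMARCB1 cells (y axis) for each gene tested. Red points are the 338 genes with a positive interaction and blue points the 260 with a negative one, which lie to the left and to the right of the dashed line of equal response. 53 genes, 3 of them called, lie beyond the axes.

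The 598 genes fell into classes by the calls in the 2 states. In 481 (80.43%), 265 positive and 216 negative, only GFP cells were called, with a median absolute log2 change of 0.30 in GFP and 0.06 in SMARCB1 cells. Both states were called with the same sign in 63 genes, of which 62 had the smaller change with SMARCB1 (medians 0.79 and 0.29) and 1, H19, had the larger. The states were called with opposite signs in 8 genes, only SMARCB1 cells were called in 25, and in 21 neither state was called. Among the 552 called genes that were also called in GFP cells, 94 kept 25% to 50% of the GFP log2 change in SMARCB1 cells, 202 kept less than 25%, 10 kept 50% or more but less than all, and 245 had the opposite sign there. The size of most differences was modest: 33 positive and 9 negative interactions were at least 1 on the log2 scale, and 97 and 39 were at least 0.5. In 588 of the 598 genes the 3 by 3 pairwise log2 differences did not overlap between the states, against 9.47% of all genes tested. The genes were called from these same libraries, so this follows largely from the selection and adds no support.

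These directions are relative to the bulk of genes. The libraries hold ERCC spike-in RNAs, synthetic transcripts added from outside, and scaling to them moves the median interaction of all genes to -0.49 on the log2 scale, the median GFP response to 0.36 and the median SMARCB1 response to -0.13. Of the 338 positive genes, 44 then stayed positive past the threshold, 145 turned negative and 149 were not called. All 260 negative genes stayed negative, which follows from the downward shift of all genes and does not make them firmer than the positive ones. Spike-in shares of the library were 1.265% to 1.302% in GFP cells with DMSO and 0.963% to 1.060% with dBRD9-A, and 1.085% to 1.210% and 1.178% to 1.295% in SMARCB1 cells. How spike-ins were added is not given in the sources used here, so a change in RNA content and a difference in spike-in input cannot be told apart. A positive interaction under 0.49 below is a smaller fall than in GFP cells only relative to other genes, and its spike-in value is given with it or in the closing section. Larger interactions below shift by about the same amount, and the spike-in value is given where their call is lost.

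**Figure D2:**
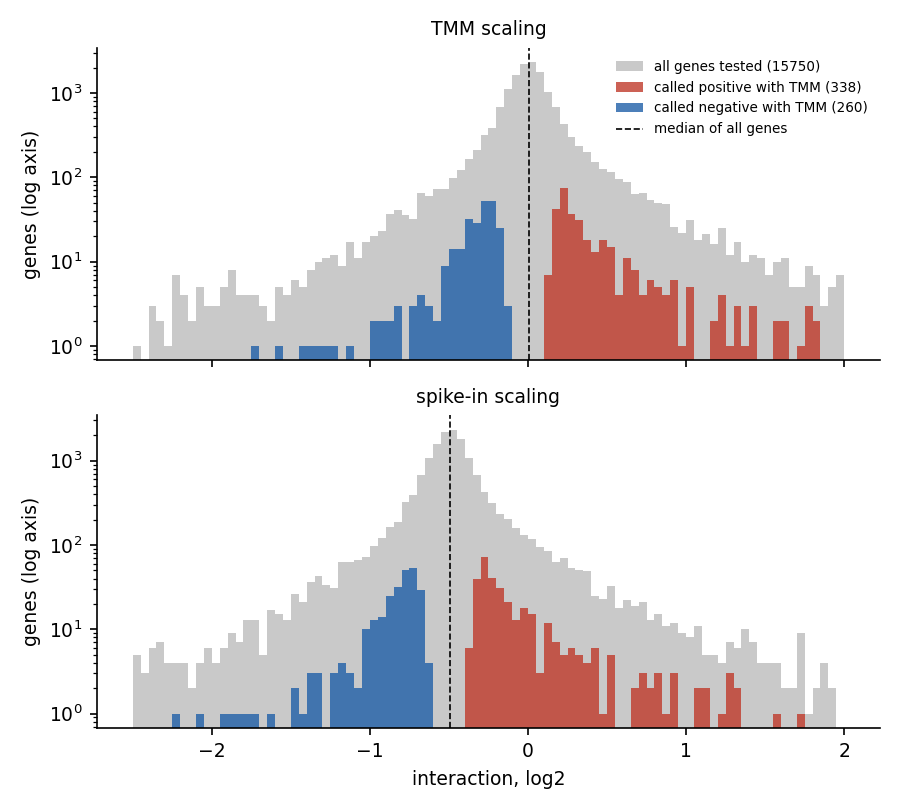
Number of genes (log axis) by interaction in log2 units, with TMM scaling, a trimmed mean over genes (top), and with spike-in scaling (bottom). Grey is all 15750 genes, red and blue are the 338 and 260 called genes, and the dashed median moves to -0.49 in the lower plot. 99 genes in each plot lie beyond the axis, 5 of them called in the upper and 3 in the lower.

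The pregnancy-specific glycoproteins had the highest share of called genes of any list. They are secreted proteins of the carcinoembryonic antigen family that the placental syncytiotrophoblast normally makes. Of the 10 PSG genes tested, 9 had a positive interaction and none a negative one, all 10 were lower with the degrader in GFP cells and 8 were lower in SMARCB1 cells. The median log2 change was -2.41 in GFP cells and -0.87 in SMARCB1 cells, with a median interaction of 1.57, against 0.01 over all genes tested. Under spike-in scaling the sign of all 9 interactions was kept, although that of PSG4 was then 0.033 and not called.

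PSG9 (ENSG00000183668.13) was at 108, 106 and 111 CPM in GFP cells with DMSO and 22.8, 22.4 and 23.5 with dBRD9-A, and 35.4, 33.2 and 31.8 CPM in SMARCB1 cells with DMSO and 22.2, 21 and 19.5 with dBRD9-A. Its fall was deep in GFP cells, where the groups are far apart, and shallow in SMARCB1 cells, which started lower. The interaction was 1.57 (SE 0.07, adjusted p 5.04e-10). PSG1 (ENSG00000231924.5) was at 16.9, 17.9 and 20.03 CPM in GFP cells with DMSO and 1.8, 2.05 and 2.09 with dBRD9-A, and 28.2, 25.6 and 26.9 CPM in SMARCB1 cells with DMSO and 10.01, 10.7 and 9.698 with dBRD9-A. Here SMARCB1 cells started above GFP cells and all 3 treated libraries stayed above every treated GFP library. Its log2 change was -3.21 in GFP and -1.41 in SMARCB1 cells, an interaction of 1.80 (SE 0.12, adjusted p 9.88e-08). In CPM the fall of PSG1 was not smaller with SMARCB1, as the means changed by -16.3 in GFP and -16.79 in SMARCB1 cells. PSG3, PSG8, PSG2 and PSG7 had interactions of 1.83, 1.71, 1.59 and 1.42, and PSG11 and PSG5 of 1.03 and 0.92. PSG6, the member without a call, was at means of 1.03 and 0.205 CPM in GFP and 0.4999 and 0.291 CPM in SMARCB1 cells with DMSO and dBRD9-A, with 1.56 (SE 0.58, adjusted p 0.173). PSG4 moved least, at 70.4, 69.9 and 76.4 CPM in GFP cells with DMSO and 46.5, 47.05 and 43.3 with dBRD9-A, and 58.5, 56.7 and 55.04 CPM in SMARCB1 cells with DMSO and 53.8, 51.7 and 49.4 with dBRD9-A, an interaction of 0.53 (SE 0.06, adjusted p 5.82e-05). Since these genes are alike in sequence, their counts depend on how shared reads were split, and PSG8 and PSG9 also overlap another annotated gene on the same strand.

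RefSeq promoters were at hand for 3 of the 10 PSG genes and are shown because the genes moved together and yet by different amounts. Each is the 250 bases before the start in GRCh38.p14, with capitals for a GC box (GGGCGG, either strand). PSG3 is at chr19:42740482-42740731 (- strand), PSG4 at chr19:43205639-43205888 (- strand) and PSG5 at chr19:43186537-43186786 (- strand).
PSG3: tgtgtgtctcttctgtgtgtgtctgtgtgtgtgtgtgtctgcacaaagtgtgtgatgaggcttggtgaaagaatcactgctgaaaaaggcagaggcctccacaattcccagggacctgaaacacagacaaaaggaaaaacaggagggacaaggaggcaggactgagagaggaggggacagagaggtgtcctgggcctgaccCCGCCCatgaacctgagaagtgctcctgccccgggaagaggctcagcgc
PSG4: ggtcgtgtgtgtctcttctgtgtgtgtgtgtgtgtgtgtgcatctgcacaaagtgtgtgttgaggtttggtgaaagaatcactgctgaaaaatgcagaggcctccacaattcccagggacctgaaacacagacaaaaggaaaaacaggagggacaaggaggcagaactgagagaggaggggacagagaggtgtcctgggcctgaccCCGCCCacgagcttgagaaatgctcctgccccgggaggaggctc
PSG5: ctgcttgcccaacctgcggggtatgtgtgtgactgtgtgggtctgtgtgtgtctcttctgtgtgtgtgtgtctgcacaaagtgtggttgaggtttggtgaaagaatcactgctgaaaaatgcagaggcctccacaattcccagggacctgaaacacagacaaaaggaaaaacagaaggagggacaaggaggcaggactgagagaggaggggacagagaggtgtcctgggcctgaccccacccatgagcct
The PSG3 and PSG4 stretches were 91.4% identical in a global alignment, and PSG5 was 72.4% and 74.6% identical to them. The PSG5 window is offset: it begins further upstream in the shared sequence and ends earlier. Its unmatched ends count as differences, so the lower figures do not measure divergence of the shared part. PSG3 and PSG4 hold a GC box 49 and 44 bases before the start and PSG5 holds none, nor does any hold TATAAA. At the matching place PSG5 reads ccaccc where the others read ccgccc. A GC box occurs in 42.3% and TATAAA in 11.1% of the 27305 promoters of the table. The GFP response was -2.51 for PSG3 and -0.66 for PSG4, and -2.35 for PSG5.

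Outside this family, 4 genes described next fell in both states and had a positive interaction. FMO1 (ENSG00000010932.11), a flavin-containing monooxygenase, was at 136, 136 and 141 CPM in GFP cells with DMSO and 21.3, 22.04 and 22.02 with dBRD9-A, and 86.6, 78.5 and 87.9 CPM in SMARCB1 cells with DMSO and 37.8, 31.9 and 35.4 with dBRD9-A. The degrader lowered it in both states, with groups well apart, by -2.66 and -1.27 on the log2 scale, and the interaction was 1.38 (SE 0.08, adjusted p 7.64e-09). MAP1LC3C (ENSG00000197769.5), an LC3 protein of autophagosomes, was at 9.69, 9.35 and 9.07 CPM in GFP cells with DMSO and 1.94, 2.08 and 1.64 with dBRD9-A, and 23.2, 22.3 and 23.2 CPM in SMARCB1 cells with DMSO and 14.7, 14.1 and 14.3 with dBRD9-A. Its fall was smaller with SMARCB1 on the log2 scale, an interaction of 1.63 (SE 0.10, adjusted p 3.05e-08), but not in CPM, where the means changed by -7.49 in GFP and -8.55 in SMARCB1 cells. SLC2A1 (ENSG00000117394.15), the glucose transporter GLUT1, was at 278, 275 and 289.6 CPM in GFP cells with DMSO and 133, 128 and 131 with dBRD9-A, and 88.2, 90.2 and 87.3 CPM in SMARCB1 cells with DMSO and 76.1, 77.3 and 76.2 with dBRD9-A. Treated GFP libraries lay far below their controls, whereas SMARCB1 cells began lower and lost less, and the interaction was 0.89 (SE 0.04, adjusted p 5.04e-10). AP3B2, the neuronal subunit of an adaptor complex, changed by -1.74 in GFP and -0.46 (SE 0.10, adjusted p 0.0171) in SMARCB1 cells, an interaction of 1.29 (SE 0.14, adjusted p 2.40e-05).

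The genes TNNT2, KLHDC7A and SLC25A18 fell in GFP cells and had no called change in SMARCB1 cells. TNNT2 (ENSG00000118194.14), cardiac troponin T, was at 14.8, 16.2 and 15.9 CPM in GFP cells with DMSO and 6.57, 6.53 and 5.31 with dBRD9-A, and 13.1, 12.5 and 13.8 CPM in SMARCB1 cells with DMSO and 12.9, 12.9 and 11.02 with dBRD9-A. Treated and control libraries were separate in GFP cells and not in SMARCB1 cells, where the change was -0.10 (SE 0.08, adjusted p 0.652), and the interaction was 1.24 (SE 0.11, adjusted p 4.00e-06). KLHDC7A (ENSG00000179023.7) was at 0.994, 1.07 and 1.14 CPM in GFP cells with DMSO and 0.281, 0.263 and 0.395 with dBRD9-A, and 9.97, 11.3 and 9.73 CPM in SMARCB1 cells with DMSO and 10.7, 10.2 and 9.88 with dBRD9-A. The SMARCB1 groups overlapped, at a level far above that of untreated GFP cells, and the interaction was 1.77 (SE 0.22, adjusted p 8.69e-05). The KLHDC7A change in GFP cells rests on 44 to 66 counts per library with DMSO and 10 to 14 with dBRD9-A. In CPM its mean changed by -0.754 in GFP and -0.0802 in SMARCB1 cells. SLC25A18, a mitochondrial glutamate carrier, had an interaction of 1.21 (SE 0.12, adjusted p 7.17e-06). SNORD3C, a small nucleolar RNA, also met the size rule, but its called change was a rise in SMARCB1 cells, 1.14 (SE 0.23, adjusted p 0.0138). Its interaction of 1.24 (SE 0.33, adjusted p 0.0441) lost the call in 8 of 12 leave-one-out fits and in DESeq2 (adjusted p 0.107). Without SMARCB1 dBRD9-A replicate 3, at 204 CPM against 104.9 and 83.0, its value moved by more than 1.5 times.

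Among genes with a negative interaction, the 4 described next rose with the degrader in GFP cells and had no called change in SMARCB1 cells. GBX2 (ENSG00000168505.6), a homeobox transcription factor of early brain patterning, was at 16.7, 16.8 and 15.98 CPM in GFP cells with DMSO and 41.1, 39.7 and 41.6 with dBRD9-A, and 20.6, 20.4 and 21.5 CPM in SMARCB1 cells with DMSO and 20.5, 22.9 and 20.2 with dBRD9-A. It rose in every treated GFP library and the SMARCB1 groups overlapped, an interaction of -1.28 (SE 0.07, adjusted p 7.64e-09). FGFR3 (ENSG00000068078.13), a fibroblast growth factor receptor, was at 9.07, 8.68 and 9.19 CPM in GFP cells with DMSO and 18.9, 17.6 and 20.5 with dBRD9-A, and 23.7, 19.96 and 21.1 CPM in SMARCB1 cells with DMSO and 23.9, 23.5 and 22.6 with dBRD9-A. Treated GFP cells approached the level that SMARCB1 cells had in both conditions, and the interaction was -0.96 (SE 0.09, adjusted p 7.04e-06). CDKN2C (ENSG00000123080.6), the cyclin-dependent kinase inhibitor p18INK4C, was at 37.6, 33.3 and 35.9 CPM in GFP cells with DMSO and 59.1, 59.2 and 64.9 with dBRD9-A, and 50.4, 47.1 and 49.4 CPM in SMARCB1 cells with DMSO and 53.9, 48.4 and 49.1 with dBRD9-A. It rose by 0.78 (SE 0.05, adjusted p 1.10e-08) in GFP cells and changed by 0.04 (SE 0.05, adjusted p 0.816) in SMARCB1 cells, an interaction of -0.73 (SE 0.07, adjusted p 8.00e-06). The noncoding LINC01179 had -1.25 (SE 0.11, adjusted p 1.85e-06).

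Other genes chosen by size or from the lists also had negative interactions. GAS6, a secreted ligand of the TYRO3, AXL and MERTK receptors, had -0.83 (SE 0.15, adjusted p 0.00356), and TYRO3 itself had -0.35 (SE 0.05, adjusted p 1.77e-04). TYRO3 averaged 62.5 ± 0.508 CPM with DMSO and 83.4 ± 2.66 with dBRD9-A in GFP cells, and 73.9 ± 0.981 and 77.3 ± 2.92 CPM in SMARCB1 cells (SD, n = 3). NEURL1B, a ubiquitin ligase for Notch ligands, had -0.92, the matrix protein MATN2 -0.90, the Rab27 effector EXPH5 -0.88, KBTBD11 -0.86 and the orphan receptor GPR153 -0.84. MATN2 and EXPH5 were at 2.83 to 3.51 and 1.19 to 1.72 CPM in GFP controls and at 16.0 to 18.2 and 24.0 to 26.1 CPM in SMARCB1 controls. Their means changed by 1.93 and 0.827 CPM in GFP cells and by -2.33 and -3.50 CPM in SMARCB1 cells, where neither change was called.

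**Figure D3:**
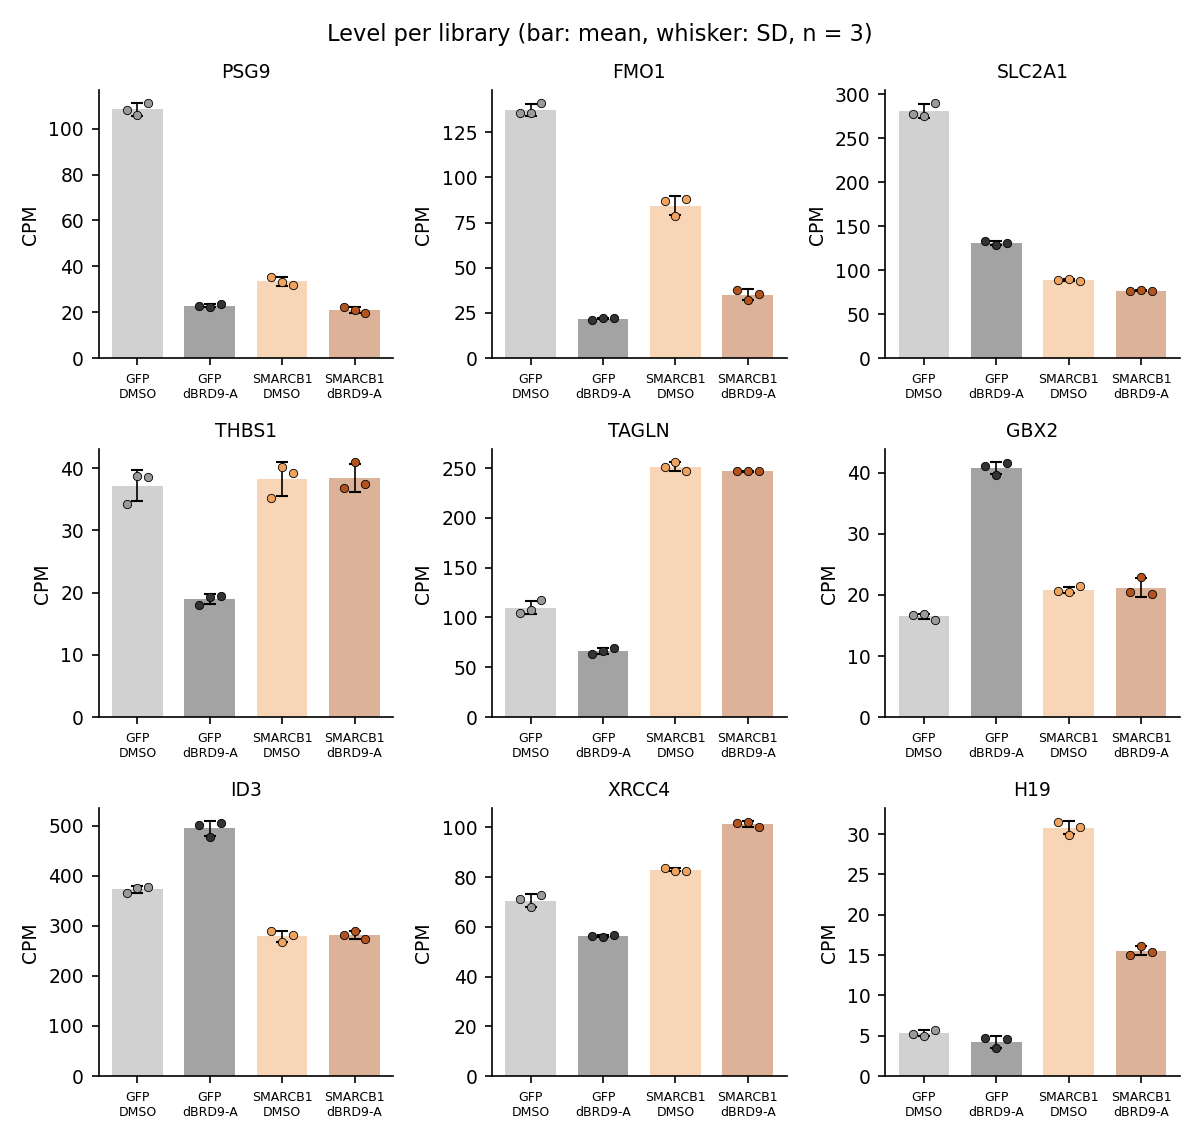
Level in CPM of 9 genes in each of the 12 libraries, with 1 point per library, bars for the mean and whiskers for the SD (n = 3). PSG9, FMO1, SLC2A1, THBS1 and TAGLN fell more in GFP than in SMARCB1 cells relative to other genes, GBX2 and ID3 rose in GFP cells, XRCC4 moved in opposite directions and H19 fell more in SMARCB1 cells (relative to other genes; XRCC4 and H19 rise slightly in GFP cells with spike-in scaling).

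Lists of pathways and complexes were then read against the 3.80% of all genes called. The lists were chosen with earlier results of these data known, so their counts describe the genes and test nothing. The lists, cell type markers included, held 1007 of the 15750 genes tested. Of these 85 were called, a share above 3.80%, and 513 called genes were in no list. Names below are of members that kept the call in every one of the 12 fits leaving out a library, unless a loss is stated.

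**Figure D4:**
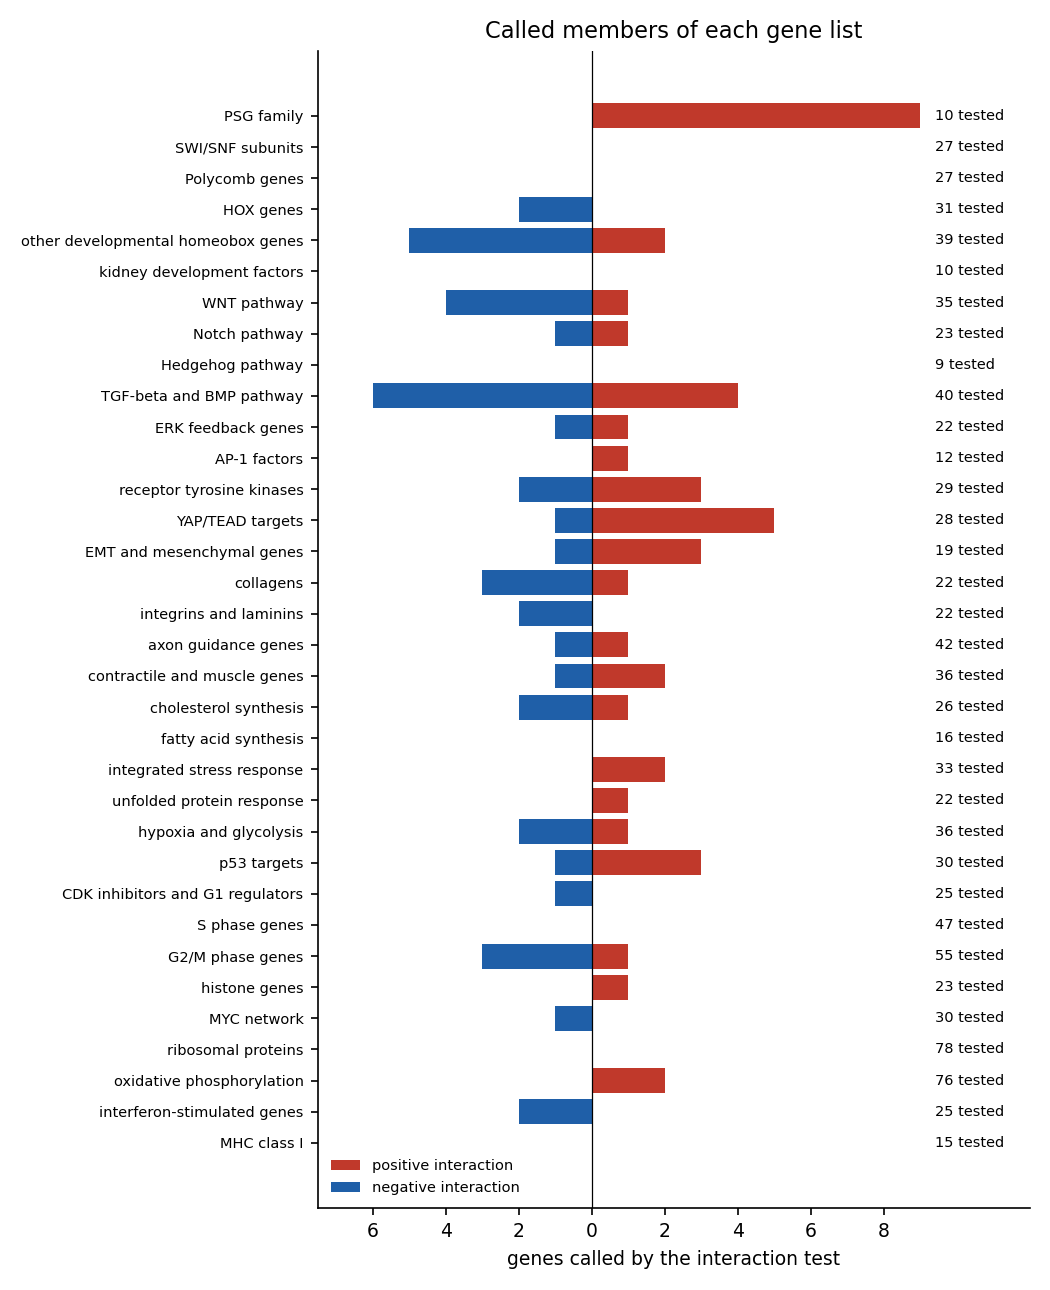
Number of genes called by the interaction test in each gene list (x axis), with negative interactions to the left in blue and positive ones to the right in red, and the number tested at the right margin. The PSG family has 9 of 10 called, the TGF-beta and BMP list 10 of 40, and several large lists such as ribosomal proteins (78 tested) and S phase genes (47 tested) have 0; with spike-in scaling 145 of the 338 positive calls turn negative.

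The TGF-beta and BMP list held 10 called genes of 40 tested, 4 positive and 6 negative. These pathways carry signals of secreted ligands through SMAD factors, and the ID genes, inhibitors of basic helix-loop-helix factors, are classical BMP targets. Among ligands, GDF5 and BMP6 had positive interactions of 1.20 (SE 0.18, adjusted p 6.36e-04) and 0.82 (SE 0.15, adjusted p 0.00333) (for BMP6 with spike-in scaling 0.32, adjusted p 0.108), and BMP4 a negative one of -0.21 (SE 0.04, adjusted p 0.00266). GDF5 averaged 5.42 ± 0.115 CPM with DMSO and 1.88 ± 0.562 with dBRD9-A in GFP cells, and 7.37 ± 0.587 and 5.86 ± 0.458 CPM in SMARCB1 cells (SD, n = 3). BMP6 averaged 8.86 ± 0.189 CPM with DMSO and 5.02 ± 0.402 with dBRD9-A in GFP cells, and 2.46 ± 0.333 and 2.48 ± 0.236 CPM in SMARCB1 cells (SD, n = 3). BMP6 thus fell in GFP cells from the higher starting level, and the SMARCB1 means differed little. All 4 ID genes had negative interactions, a grouping chosen after their values were seen.

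ID2 (ENSG00000115738.5) was at 65.2, 61.7 and 64.2 CPM in GFP cells with DMSO and 101, 104 and 102 with dBRD9-A, and 45.2, 41.98 and 42.8 CPM in SMARCB1 cells with DMSO and 48.4, 46.4 and 48.5 with dBRD9-A. It rose in GFP cells by 0.68 (SE 0.03, adjusted p 1.95e-10) and changed by 0.14 (SE 0.04, adjusted p 0.0544) in SMARCB1 cells, an interaction of -0.54 (SE 0.05, adjusted p 3.08e-06). ID3 (ENSG00000117318.8) was at 366, 375 and 378 CPM in GFP cells with DMSO and 501, 478 and 504 with dBRD9-A, and 289, 268 and 281 CPM in SMARCB1 cells with DMSO and 281, 289.5 and 274 with dBRD9-A. The SMARCB1 groups overlapped while the GFP groups did not, and the interaction was -0.40 (SE 0.05, adjusted p 5.54e-05). ID4 had -0.45 (SE 0.05, adjusted p 7.46e-05) and ID1 -0.32 (SE 0.08, adjusted p 0.0378), the last lost in 9 of the 12 fits. SKIL, a repressor of SMAD factors that TGF-beta induces, had -0.31 (SE 0.06, adjusted p 0.00383). LTBP2, a matrix protein of the latent TGF-beta binding family, had 0.44 (with spike-in scaling -0.066). The list thus did not move one way: its ligands stand on both sides.

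RefSeq promoters of ID2, ID3 and ID4, which had the firmest calls of the 4 ID genes, are shown with GC boxes and TATAAA in capitals (GRCh38.p14, 250 bases before the start). ID2 is at chr2:8681806-8682055 (+ strand), ID3 at chr1:23559502-23559751 (- strand) and ID4 at chr6:19837120-19837369 (+ strand).
ID2: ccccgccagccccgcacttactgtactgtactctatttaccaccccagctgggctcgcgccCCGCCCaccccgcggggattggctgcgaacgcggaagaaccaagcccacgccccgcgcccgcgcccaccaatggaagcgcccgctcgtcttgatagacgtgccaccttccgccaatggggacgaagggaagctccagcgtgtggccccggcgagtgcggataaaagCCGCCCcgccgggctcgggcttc
ID3: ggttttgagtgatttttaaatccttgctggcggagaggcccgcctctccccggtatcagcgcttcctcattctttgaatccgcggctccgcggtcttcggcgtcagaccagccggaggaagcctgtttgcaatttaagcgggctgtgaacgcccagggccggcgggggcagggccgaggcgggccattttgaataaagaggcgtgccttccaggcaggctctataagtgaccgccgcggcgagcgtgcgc
ID4: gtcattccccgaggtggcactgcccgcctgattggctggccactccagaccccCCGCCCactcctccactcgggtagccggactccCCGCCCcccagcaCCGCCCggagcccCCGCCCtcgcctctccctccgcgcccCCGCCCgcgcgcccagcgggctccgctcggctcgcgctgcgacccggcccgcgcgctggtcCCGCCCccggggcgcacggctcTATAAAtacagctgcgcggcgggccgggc
GC content was 69.2%, 62.0% and 78.8%, with 29, 24 and 34 CpG dinucleotides, against 1 to 4 in the PSG stretches above. The letters of a GC box occur 2 times in ID2 and 6 times in ID4, TATAAA occurs 29 bases before the start of ID4, and ID3 holds neither.

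Receptor tyrosine kinases had 5 of 29 called and ERK feedback genes 2 of 22. FGFR3 and TYRO3 were negative, and PDGFRB, a receptor for platelet-derived growth factors, was positive with 0.31 (SE 0.07, adjusted p 0.01) (with spike-in scaling -0.18). FGFR2 and AXL were also positive but lost the call in 2 and 7 of the 12 fits. FGFR2 lost it without GFP DMSO replicate 1 or GFP dBRD9-A replicate 1. DUSP6 (ENSG00000139318.7), the phosphatase that ERK induces and that switches ERK off, was at 128, 129 and 136 CPM in GFP cells with DMSO and 220.1, 226 and 225 with dBRD9-A, and 51, 53.2 and 52.02 CPM in SMARCB1 cells with DMSO and 59.8, 66.5 and 60.8 with dBRD9-A. It rose in both states, more in GFP cells, and the interaction was -0.51 (SE 0.05, adjusted p 1.23e-05). DUSP1, a phosphatase of stress kinases and ERK, had 0.46 (SE 0.07, adjusted p 3.85e-04) (with spike-in scaling -0.038). Of 12 AP-1 factors FOSL2 was called, with 0.32 (SE 0.07, adjusted p 0.0137) (with spike-in scaling -0.18).

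In the WNT list 5 of 35 were called, of which DKK3, a secreted protein of the Dickkopf family, kept the call, with 0.42 (SE 0.06, adjusted p 6.27e-04) (with spike-in scaling -0.069). FZD4, FZD7, WNT5B and DKK1 had negative interactions and lost the call in 2, 8, 5 and 4 of the 12 fits, FZD4 without GFP DMSO replicate 1 or GFP dBRD9-A replicate 1. DKK1 was at 202, 201 and 201 CPM in GFP cells with DMSO and 287, 290.5 and 298 with dBRD9-A, and 2.51, 2.85 and 2.37 CPM in SMARCB1 cells with DMSO and 3.01, 2.95 and 2.698 with dBRD9-A, so its SMARCB1 response rests on 2.37 to 3.01 CPM. The Notch list had JAG2 and RBPJ called of 23, lost in 11 and 9 fits. The Hedgehog list had 0 of 9, with a count of 0 also for the kidney development list (10 tested).

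Homeobox genes other than HOX had 7 of 39 called, 5 negative and 2 positive. DLX2 and DLX1, neighbouring factors of forebrain and limb patterning, had -0.65 (SE 0.09, adjusted p 2.14e-04) and -0.50 (SE 0.06, adjusted p 1.13e-04), and MSX1 -0.41 (SE 0.08, adjusted p 0.00714). DLX2 was at 15.2, 13.8 and 15 CPM in GFP cells with DMSO and 23.4, 22.9 and 23.6 with dBRD9-A, and 14.4, 13.3 and 14.5 CPM in SMARCB1 cells with DMSO and 13.7, 15.6 and 13.1 with dBRD9-A. Its 3 treated GFP libraries stood above all others and the SMARCB1 groups overlapped. ALX4, a factor of skull and limb patterning, was positive at 0.25 (SE 0.05, adjusted p 0.00685) (with spike-in scaling -0.25). MEIS3 and ZEB1 lost the call in 10 and 9 fits. HOXA9 and HOXB9 were the called HOX genes of 31 tested, both negative, and lost the call in 9 and 7 fits.

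Matrix, adhesion and contractile genes were called on both sides. TAGLN (ENSG00000149591.12), the actin-binding protein transgelin, was at 105, 107 and 117 CPM in GFP cells with DMSO and 63.7, 66.7 and 69.2 with dBRD9-A, and 251, 256 and 248 CPM in SMARCB1 cells with DMSO and 247, 248 and 247 with dBRD9-A. The GFP groups were far apart, the SMARCB1 groups lay next to each other, and the interaction was 0.70 (SE 0.05, adjusted p 5.16e-07) (with spike-in scaling 0.20, adjusted p 0.0564). SPARC, a secreted matrix protein, had 0.37 (SE 0.05, adjusted p 2.41e-04) (with spike-in scaling -0.13), at 38.8 to 40.6 CPM in GFP controls and 1301 to 1376 CPM in SMARCB1 controls. TPM1, a tropomyosin, was negative at -0.22 (SE 0.03, adjusted p 5.01e-04). Of 22 collagens, COL5A2 and COL3A1 were negative at -0.39 (SE 0.04, adjusted p 4.86e-06) and -0.30 (SE 0.04, adjusted p 1.44e-04), COL1A2 positive at 0.20 (SE 0.04, adjusted p 0.00898) (with spike-in scaling -0.29), and COL11A1 was called and lost in 7 fits.
Among 22 integrins and laminins ITGB5 and ITGAV were called and lost in 8 and 11 fits. In the EMT list 4 of 19 were called, with SNAI1 and ZEB1 lost in 9 fits each beside TAGLN and SPARC. Of 42 axon guidance genes SEMA7A was positive at 0.44 (SE 0.10, adjusted p 0.0135) (with spike-in scaling -0.057) and NRP1 negative at -0.24 (SE 0.05, adjusted p 0.0144). YAP/TEAD targets had 6 of 28 called: MYOF, a membrane repair protein, at 0.31 (SE 0.05, adjusted p 8.56e-04) (with spike-in scaling -0.19), GADD45A, RBMS3 at -0.29 (SE 0.06, adjusted p 0.00979), and AXL, NUAK2 and IGFBP3, lost in 7, 9 and 5 fits.

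Stress and p53 genes were mainly positive where called. NUPR1, a stress-induced chromatin protein, and DDIT4, an inhibitor of mTORC1, were the called members of 33 in the integrated stress response, with 0.51 (SE 0.07, adjusted p 2.80e-04) and 0.43 (SE 0.06, adjusted p 2.41e-04) (with spike-in scaling 0.014 and -0.068). NUPR1 was at 102, 101 and 114 CPM in GFP cells with DMSO and 66.5, 61.1 and 65.4 with dBRD9-A, and 41.5, 40.6 and 41.9 CPM in SMARCB1 cells with DMSO and 37.2, 37.1 and 33.3 with dBRD9-A. The GFP groups stand far apart and the SMARCB1 groups only narrowly, with a change there of -0.20 (SE 0.05, adjusted p 0.0575). Of 30 p53 targets, GADD45A, PLK2 and MDM2 were positive at 0.55 (SE 0.08, adjusted p 5.01e-04), 0.53 (SE 0.10, adjusted p 0.00446) and 0.21 (SE 0.04, adjusted p 0.00321) (with spike-in scaling 0.046, 0.034 and -0.29). PHLDA3, an inhibitor of AKT, was negative at -0.36 (SE 0.07, adjusted p 0.00514). Of 22 unfolded protein response genes DNAJB11 was called, lost in 7 fits.

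Growth and metabolic lists held 0 to 4 called genes each. The share called was 11.54% in cholesterol synthesis, 8.33% in hypoxia and glycolysis, 8.0% in interferon-stimulated and 7.27% in G2/M genes, against 3.80% of all genes. Histone genes (4.35%), G1 regulators (4.0%), the MYC network (3.33%) and oxidative phosphorylation (2.63%) were nearer to that share. SLC2A1 was called among 36 genes of hypoxia and glycolysis, beside BNIP3L and P4HA2, which lost the call in 2 and 7 fits, BNIP3L without GFP DMSO replicate 1 or GFP dBRD9-A replicate 3. HMGCS1, an early enzyme of cholesterol synthesis, was negative at -0.26 (SE 0.04, adjusted p 0.00137) among 26, with SREBF1 and IDI1 lost in 10 fits each. Fatty acid synthesis had 0 of 16 and oxidative phosphorylation NDUFA5 and NDUFA7 of 76, lost in 3 and 11 fits. CDKN2C was the called gene of 25 G1 regulators. S phase genes had 0 of 47 called and G2/M genes 4 of 55, PSRC1, TACC3, CDC25B and CDCA2, lost in 2, 8, 9 and 7 fits, PSRC1 without GFP dBRD9-A replicate 2 or SMARCB1 dBRD9-A replicate 1. Histone genes had 1 of 23, H3-3B at 0.20 (SE 0.04, adjusted p 0.00401) (with spike-in scaling -0.29), and the MYC network 1 of 30, MXD4, lost without GFP DMSO replicate 1 or GFP dBRD9-A replicate 3. Ribosomal proteins had 0 of 78 and MHC class I 0 of 15. Interferon-stimulated genes had 2 of 25, the RNA sensor RIGI at -0.38 (SE 0.06, adjusted p 4.48e-04) and IFI35, lost in 8 fits.

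Subunits of the remodelling complexes themselves gave no called interaction: 0 of 27 SWI/SNF subunits and 0 of 27 Polycomb genes, against 3.80% of all genes tested. Lists of 27 genes are too small to tell 0 calls from that share. By edgeR, 2506 of the 15750 genes tested had an unadjusted interaction p under 0.05. In the lists with a count of 0, such genes numbered 4 of 27 SWI/SNF subunits, 3 of 27 Polycomb genes, 2 of 10 kidney factors and 1 of 9 Hedgehog genes. They also numbered 1 of 16 fatty acid genes, 6 of 47 S phase genes, 7 of 78 ribosomal proteins and 2 of 15 MHC genes. Of all genes in these lists DESeq2 called 1, ACSL3 of fatty acid activation. BRD9 RNA was at 39.6, 37.2 and 38.01 CPM in GFP cells with DMSO and 41.3, 40.2 and 41.9 with dBRD9-A, and 46.1, 49.2 and 45.3 CPM in SMARCB1 cells with DMSO and 44.9, 47.03 and 50.4 with dBRD9-A. The degrader acts on the protein, and the RNA groups differed by an interaction of -0.08 (SE 0.06, adjusted p 0.573). BICRAL rose with the degrader in both states, by 0.67 (SE 0.08, adjusted p 9.67e-06) in GFP and 0.45 (SE 0.08, adjusted p 0.00529) in SMARCB1 cells, with an interaction of -0.22 (SE 0.11, adjusted p 0.352). BICRA was low, at 0.460 to 1.18 CPM, with 0.37 (SE 0.36, adjusted p 0.679) (with spike-in scaling -0.14). SS18, ACTL6A, SMARCD1, SMARCA4 and BCL7A had interactions of -0.01, -0.02, 0.03, 0.03 and 0.02, and SMARCC1, BCL7B and BCL7C of 0.10, -0.13 and -0.11, none called (with spike-in scaling all of these were between -0.62 and -0.39).

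A small set of genes did not follow the pattern of a weaker response with SMARCB1. XRCC4 (ENSG00000152422.11), a scaffold of DNA end joining, was at 71.1, 67.8 and 72.9 CPM in GFP cells with DMSO and 56.4, 55.9 and 56.6 with dBRD9-A, and 83.7, 82.6 and 82.6 CPM in SMARCB1 cells with DMSO and 102, 102 and 100.1 with dBRD9-A. No group overlapped another, and the gene changed by -0.33 (SE 0.03, adjusted p 6.08e-07) in GFP cells and by 0.29 (SE 0.03, adjusted p 1.65e-05) in SMARCB1 cells, an interaction of 0.62 (SE 0.04, adjusted p 1.00e-07). Both state calls held in all 12 fits, while spike-in scaling put the GFP change at 0.03 and the interaction at 0.12, not called. The other 7 opposed genes rose in GFP and fell in SMARCB1 cells: CAVIN2 of caveolae, the proteoglycan SDC1, CD177, GABARAPL1 of autophagosomes, the ETS factor ELF1, the transporter SLC39A8 and COL3A1. CAVIN2 was at 4.01, 3.73 and 4.03 CPM in GFP cells with DMSO and 4.96, 4.53 and 5.34 with dBRD9-A, and 14.6, 14.4 and 14.7 CPM in SMARCB1 cells with DMSO and 11.1, 11.9 and 10.98 with dBRD9-A, and its interaction was -0.69 (SE 0.10, adjusted p 4.94e-04). The GFP groups were close and the SMARCB1 groups farther apart. Their interactions held in all 12 fits, but a call in SMARCB1 cells was lost in 8 fits for CD177, 9 for ELF1, 4 for SDC1, 3 for GABARAPL1 and 3 for SLC39A8, so that the sign there is less firm than the difference. A call in GFP cells was lost in 4 fits for ELF1 and SLC39A8, in 2 for COL3A1 and in 1 for CAVIN2.

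H19 (ENSG00000130600.11), an imprinted noncoding RNA, was at 5.25, 4.94 and 5.702 CPM in GFP cells with DMSO and 4.77, 3.42 and 4.602 with dBRD9-A, and 31.5, 29.9 and 30.9 CPM in SMARCB1 cells with DMSO and 15.1, 16.1 and 15.3 with dBRD9-A. It fell more in SMARCB1 cells, from a higher level, with an interaction of -0.67 (SE 0.12, adjusted p 0.00294). The GFP change of -0.32 (SE 0.10, adjusted p 0.0365) was lost in 3 fits and was 0.05 with spike-in scaling. Of the 25 genes called only in SMARCB1 cells, 16 had negative interactions. HSPB2, a small heat shock protein, LTN1, the ubiquitin ligase of stalled ribosomes, FBN1, the microfibril protein fibrillin-1, and CENPT, a kinetochore protein, were lower with the degrader there, with changes of -0.35, -0.28, -0.40 and -0.38, with interactions of -0.42 (SE 0.06, adjusted p 2.41e-04), -0.35 (SE 0.05, adjusted p 2.44e-04), -0.35 (SE 0.06, adjusted p 0.00338) and -0.35 (SE 0.07, adjusted p 0.00932). LTN1 was at 253, 247 and 246 CPM in GFP cells with DMSO and 255, 264 and 268 with dBRD9-A, and 289, 285 and 292 CPM in SMARCB1 cells with DMSO and 248, 223 and 243 with dBRD9-A. The fall in SMARCB1 cells was small but separated the groups. IGFN1, also in this class, lost the call in 7 fits.

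**Figure D5:**
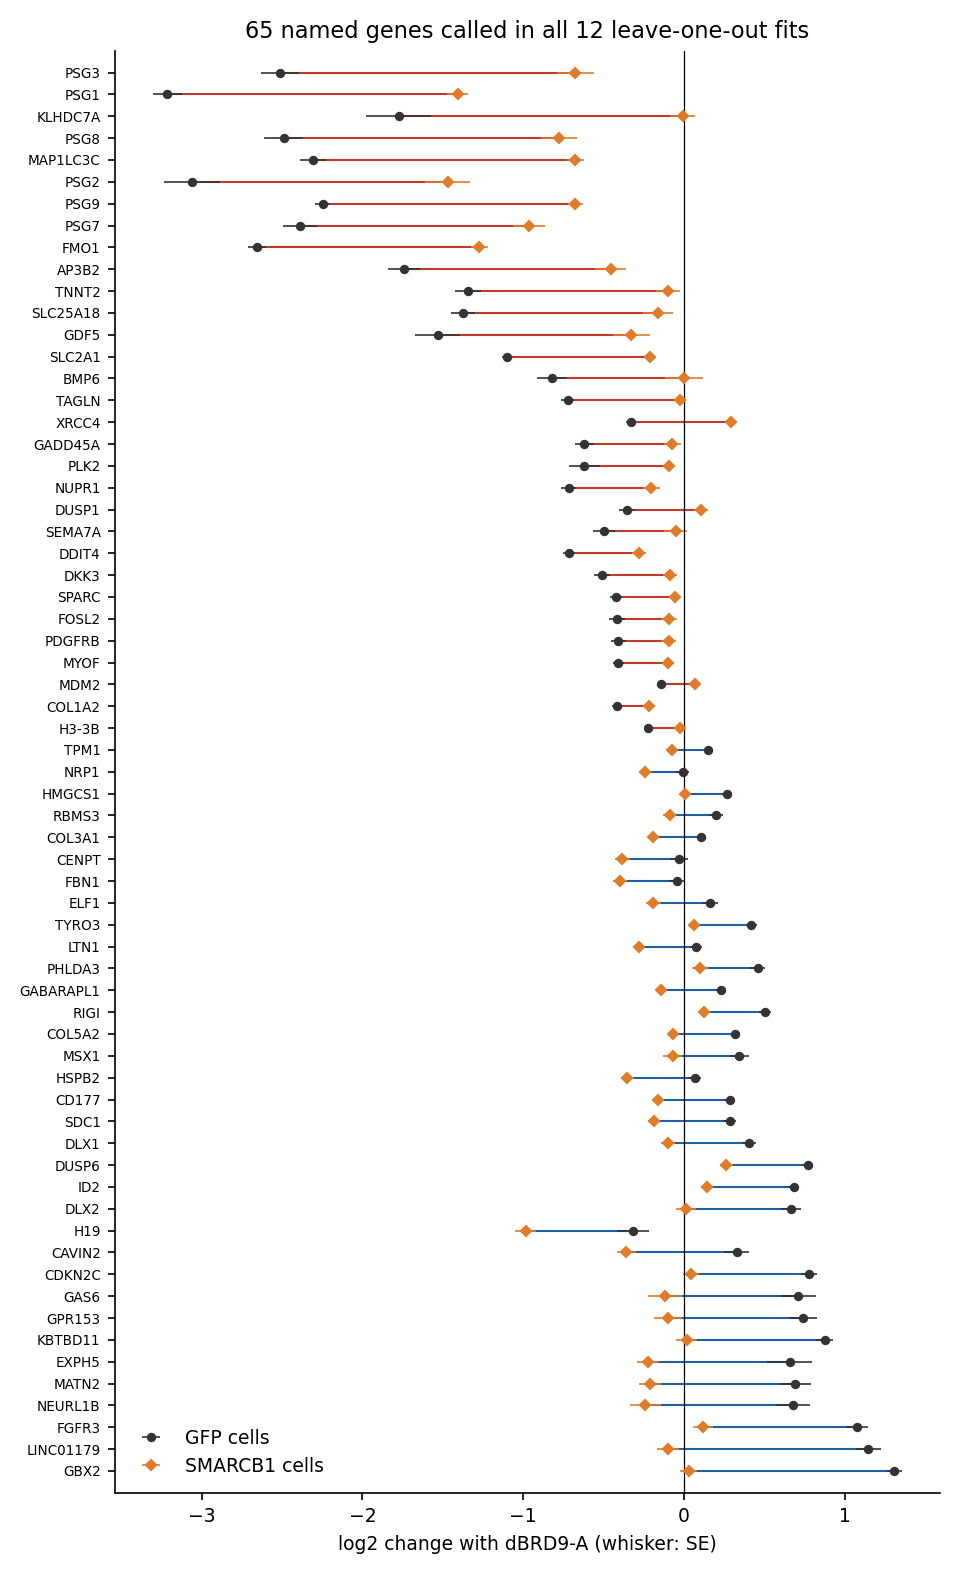
Log2 change with dBRD9-A in GFP cells (circles) and SMARCB1 cells (diamonds), with SE, for 65 genes chosen by the naming rule that kept the interaction call in each of the 12 fits leaving out a library. Red lines join positive and blue lines negative interactions, and most diamonds lie nearer 0 than the circles; with spike-in scaling the GFP values move by about 0.36 and the SMARCB1 values by about -0.13, which turns the sign of positive interactions under about 0.49.

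The called set also depended on level and scale. Of genes with a mean under 50 counts 0.348% were called, with no interaction smaller than 1.34, while above 5000 counts 6.90% were called, down to 0.124. A small dependence in a rarely expressed gene was therefore not detectable at this depth. On the log2 scale 547 of the 598 changes were smaller with SMARCB1. Measured as a change in CPM, 527 were smaller on both scales, 20 were smaller in log2 and larger in CPM, 10 the reverse, and 41 larger on both. AXL, one of the 20, averaged 29.01 ± 1.02 CPM with DMSO and 20.7 ± 0.5699 with dBRD9-A in GFP cells, and 159 ± 4.48 and 130.4 ± 2.92 CPM in SMARCB1 cells (SD, n = 3). PLK2 and SPARC were also among the 20. Their means changed by -1.166 and -10.11 CPM in GFP cells and by -9.085 and -51.33 CPM in SMARCB1 cells. By gene type 562 of 12510 protein-coding genes (4.49%) and 17 of 517 lincRNAs (3.29%) were called. Of the 96 called genes that the naming rule chose, 61 overlap another annotated gene on either strand, and whether the counting used strand is not given in the sources used here.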

How the data were processed

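RNA was purified with a column kit and made into 12 stranded poly(A) libraries, per the labels' protocols. Reads were processed with STAR and RSEM 1.3.1 against GRCh37 (hg19), per the submitters' processing notes, and the deposited values are expected counts per gene, 2.574% of them not whole. The annotation used for counting is not given in the sources used here.

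The 3 deposited tables were joined on the gene identifier (libraries in several tables had 0 differing values), which gave 57820 genes, 51996 with a symbol, and 40 spike-ins. Replicates differed by 2.888 to 23.76 in chi-square per degree of freedom, so each was counted. The highest values, 10.09 and 23.76, were those of SMARCB1 dBRD9-A replicate 2 against replicates 1 and 3 of its group. Pairs of GFP dBRD9-A libraries were at 2.888 to 3.408. Counts were rounded, genes filtered with filterByExpr (minimum 10), scaled by TMM (factors 0.97646 to 1.0161), and fitted with 1 coefficient per group in edgeR 4.0.16 (R 4.3.3) by the quasi-likelihood F test, with Benjamini-Hochberg adjustment over 15750 genes and a threshold of 0.05. The fit was also run on simulated counts with known interactions in some genes. That run held no shift of all genes and no outlying library, so it cannot speak to either. Spike-ins were not tested as genes and did not enter the main fit. They set the scaling factors of the spike-in scaled fit. Each SE was derived from the test, as the absolute log2 value divided by the square root of the F statistic. Floors cover counting error only. Annotated overlaps come from GENCODE 29 and promoters from RefSeq, both on GRCh38; no coordinate of the counting build is given.

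Named genes were the 12 largest positive and 12 largest negative called interactions with a symbol, a mean of 200 counts and non-overlapping pairwise differences, the 6 largest among genes with opposite calls and among those called only in SMARCB1 cells, up to 4 called genes per list, and BRD9 complex members; 1 gene that the rule chose is not reported here. BMP4, ID1, ID3, ID4, SKIL, LTBP2, PSG4, PSG5, PSG11, MEIS3, ALX4, FZD7, FGFR2, IGFBP3, SLC39A8, THBS1 and the genes of the closing observations were chosen after their values were seen. Members, lists and rules were chosen with earlier results of these data known. Alternatives were DESeq2 1.42.0, other scalings and filters, a replicate block, a fold threshold, each state alone and leaving out each library, and, chosen after seeing the data, the change in CPM.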

Additional observations from a re-analysis of the deposited data

Results flagged for a closer look

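The test of the difference between the 2 cell states was passed by 598 genes, which makes the degrader response one that differs between the states. Of the genes called in both states, 9 are listed here, because the calls had opposite signs or, for H19, because SMARCB1 cells had the larger change. The interactions were 0.62 for XRCC4 (adjusted p 1.00e-07; -0.33 in GFP and 0.29 in SMARCB1 cells), -0.69 for CAVIN2 (adjusted p 4.94e-04) and -0.67 for H19 (adjusted p 0.00294). They were -0.47 for SDC1, -0.44 for CD177, -0.37 for GABARAPL1, -0.35 for ELF1, -0.32 for SLC39A8 and -0.30 for COL3A1, with adjusted p from 5.29e-05 to 0.00399 (edgeR). Each kept its interaction call when any 1 library was left out.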

How the results depend on the processing

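The interaction count was 598 and ranged from 422 to 862 over the 12 fits without 1 library, from 237 to 419 for positive and from 172 to 443 for negative genes. Of the 598 genes 341 were called in every one of these fits, and 334 also in DESeq2 and with a replicate block. SMARCB1 dBRD9-A replicate 2 differed most from its replicates. Without it 862 interaction genes were called, negative genes were the majority (443 against 419), and SMARCB1 response genes rose from 304 to 422. The fit without GFP DMSO replicate 1 gave 422 interaction genes. Genes smaller with SMARCB1 ranged from 397 to 709, GFP response genes from 1778 to 2804 and SMARCB1 response genes from 169 to 422; the fits without SMARCB1 DMSO replicates 2 and 3 and SMARCB1 dBRD9-A replicate 3 gave 174, 169 and 195. DESeq2 called 632 (538 shared), other size factors 612 (581 shared) and a minimum count of 50 gave 645 (589 shared). No filter gave 856, 522 of them positive, and 652 SMARCB1 response genes, and SMARCB1 libraries alone gave 159. At an absolute log2 value of at least 0.5 there were 136 interaction genes (97 positive, 39 negative, 124 smaller with SMARCB1), 454 GFP and 61 SMARCB1 response genes. Same-numbered libraries did not deviate together (correlations -0.08916 to 0.05735 over 18 pairs), and 1 of 12 libraries was closest to its own number. A pairing by number was therefore not detected, which does not show that there was none, and the titles number the libraries replicate by replicate. The replicate block gave 529 genes, of which 514 were shared, while 84 of the 598 lost the call.

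Spike-in scaling gave 11270 interaction genes (66 positive, 11204 negative, 10416 smaller with SMARCB1), 11310 GFP and 873 SMARCB1 response genes. Interactions of genes named here that it turned negative, as the shift of all genes does by construction, were DKK3 -0.069, RBPJ -0.30, DUSP1 -0.038, FOSL2 -0.18, PDGFRB -0.18, AXL -0.29, NUAK2 -0.097, MYOF -0.19, SPARC -0.13, ZEB1 -0.33, COL1A2 -0.29, SEMA7A -0.057, SREBF1 -0.24, DDIT4 -0.068, DNAJB11 -0.29, MDM2 -0.29, CDC25B -0.28, H3-3B -0.29, NDUFA7 -0.30, NDUFA5 -0.32, LIN28B -0.041, BCL7A -0.48, SMARCD1 -0.46, SMARCC1 -0.39, SMARCA4 -0.47, LTBP2 -0.066, ALX4 -0.25, FGFR2 -0.29, IGFBP3 -0.30, BICRA -0.14, BCL2L1 -0.049, BCL2 -0.26, CSF1 -0.14, BDNF -0.17 and LIN28A -0.13.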

Other observations

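Regulators of cell death outside the lists, looked up after the results were seen, were also among the genes whose response depended on SMARCB1. BCL2L1, which encodes the survival protein BCL-XL, was at 55.2, 53.5 and 55.7 CPM in GFP cells with DMSO and 42.7, 40.8 and 39.5 with dBRD9-A, and 80.02, 78.9 and 77.4 CPM in SMARCB1 cells with DMSO and 81.97, 78.7 and 79.98 with dBRD9-A. It fell in GFP cells and the SMARCB1 groups overlapped, an interaction of 0.45 (SE 0.05, adjusted p 1.73e-05) (with spike-in scaling -0.049). BIRC7, an inhibitor of apoptosis protein, averaged 19.4 ± 0.715 CPM with DMSO and 12.99 ± 0.807 with dBRD9-A in GFP cells, and 7.94 ± 0.512 and 9.31 ± 0.736 CPM in SMARCB1 cells (SD, n = 3). Its interaction was 0.82 (SE 0.10, adjusted p 7.03e-05). XIAP, another member of that family, moved the other way, with -0.29 (SE 0.04, adjusted p 3.30e-04). BCL2 was called at 0.23 (SE 0.06, adjusted p 0.04) (with spike-in scaling -0.26) and lost the call in 9 of the 12 fits without a library, as did BIRC2, at -0.20 (SE 0.05, adjusted p 0.0295), in 6. NFKB2, a subunit of the NF-kappaB factors, had -0.27 (SE 0.06, adjusted p 0.00979).

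Secreted factors and regulators of other kinds, chosen in the same way, stood on both sides. THBS1, thrombospondin-1, was at 34.3, 38.7 and 38.6 CPM in GFP cells with DMSO and 18.1, 19.4 and 19.4 with dBRD9-A, and 35.2, 40.3 and 39.3 CPM in SMARCB1 cells with DMSO and 36.9, 40.97 and 37.5 with dBRD9-A. The GFP groups did not overlap, the SMARCB1 groups did, and the interaction was 0.98 (SE 0.09, adjusted p 2.46e-06). ANGPT2, a ligand of the endothelial TIE2 receptor, had 0.65 (SE 0.09, adjusted p 2.67e-04) (with spike-in scaling 0.16, adjusted p 0.223), and the growth factors CSF1 and BDNF 0.35 (SE 0.07, adjusted p 0.00624) and 0.33 (SE 0.07, adjusted p 0.0109) (with spike-in scaling -0.14 and -0.17). IL6 had 0.85 (SE 0.20, adjusted p 0.0197) (with spike-in scaling 0.35, adjusted p 0.145) at 1.2 to 3.7 CPM and lost the call in 4 fits. SIK1, a salt-inducible kinase, had 0.90 (SE 0.12, adjusted p 1.63e-04), and PPME1, the methylesterase of phosphatase 2A, 0.65 (SE 0.05, adjusted p 8.32e-07) (with spike-in scaling 0.16, adjusted p 0.133). The RNA-binding stem cell factor LIN28A, at 235 to 539 CPM, had 0.37 (SE 0.04, adjusted p 5.54e-05) (with spike-in scaling -0.13). Transcription factors GATA2 and NR2F1 were negative at -0.37 (SE 0.07, adjusted p 0.00401) and -0.33 (SE 0.05, adjusted p 0.00135), and LHX6 was positive at 0.94 (SE 0.17, adjusted p 0.00321) (with spike-in scaling 0.43, adjusted p 0.0508).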
